A study of Mus musculus with 8 samples.

Results

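Chemokines and chemokine receptors were followed in white adipose tissue of mice given endostatin. The set holds the 59 protein-coding genes, of 37046 features in all, whose mouse symbol is a numbered Ccl, Cxcl, Ccr, Cxcr or Ackr, or is Cx3cl1, Cx3cr1, Xcl1 or Xcr1. They are 23 CC ligands, 12 CXC ligands, 2 ligands and 2 receptors of the CX3C and XC classes, 10 CC receptors, 6 CXC receptors and 4 atypical receptors. Tissue of C57BL/6J Wild-type female mice was taken 2 h after mice received endostatin at 50 mg/kg (4 libraries) or PBS, the vehicle control (4 libraries), by the tail vein, and all mice were without food in that interval. Endostatin is a fragment of collagen XVIII known to restrain the growth of blood vessels. The labels place endostatin 1 and 2 and control 1 and 2 in batch 1, and endostatin 3 and 4 and control 3 and 4 in batch 2. No age of the mice is given in the sources used here. In addition, the series text speaks of 4 female mice and the labels tie no library to an animal, so p-values measure only the spread between these libraries, which may be technical.

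Chemokines are small secreted proteins that guide migrating cells, and their receptors span the membrane and mostly signal through inhibitory G proteins. Atypical receptors bind chemokines without that signal and remove or store them. In adipose tissue the system is best known for the recruitment of monocytes, through Ccl2 and its receptor Ccr2, and for the pair of Cxcl12 and Cxcr4. Cxcl12 is also taken up by the atypical receptor Ackr3.

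The classes are named after the spacing of the first cysteines of the mature ligand. It is shown here in the coding sequences of the GENCODE M21 transcripts for 1 ligand of each class, 5′ to 3′, with the cysteine codons in capitals. Cxcl12 lies on chromosome 6, Ccl2 on chromosome 11, Cx3cl1 on chromosome 8 and Xcl1 on chromosome 1. A search for the spacing of its own class, anywhere behind the start of the protein, found it in 12 of 12 CXC ligands and 22 of 23 CC ligands. It did not ask whether these were the first cysteines. The exception, Ccl27a, was searched in a coding form of 87 codons, and its other forms were not searched.
Cxcl12: agctaccgaTGCcccTGCcggttcttc
Ccl2: ccactcaccTGCTGCtactcattc
Cx3cl1: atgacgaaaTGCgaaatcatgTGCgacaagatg
Xcl1: gagagtagcTGTgtgaactta

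The receptors differ in a stretch of 7 residues behind the third transmembrane segment, which couples conventional receptors to G proteins. Its usual wording begins with aspartate, arginine and tyrosine and goes on with leucine, alanine, isoleucine and valine; it was found whole in 11 of 18 conventional receptors, and a further 5 keep its first 3 residues. None of the 4 atypical receptors has it whole, and 2 of them, Ackr3 and Ackr4, keep the first 3 residues. The 5 examples are coding sequence of the same transcript set, with the 7 codons in capitals. Ackr3 and Cxcr4 lie on chromosome 1, and Ackr2, Ackr4 and Ccr2 on chromosome 9.
Ackr3: gtgGACCGCTATCTCTCCATCACCtac
Ackr2: ctgGACAAATACCTGGAGATTGTCcac
Ackr4: attGACAGATATTGGGCAATTACCaaa
Cxcr4: ctgGACCGGTACCTCGCTATTGTCcac
Ccr2: attGATAGGTACTTGGCTATTGTTcat

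Libraries held 17197721 to 23786594 estimated counts in the endostatin group and 15826783 to 19221886 in the control group. Adipocyte markers such as Adipoq summed to 19776 to 24392 TPM (a level per transcript length, with an equal total for every library) after endostatin and to 13434 to 28768 TPM in control tissue, and 6 of 6 were at 1 TPM or more. The tissue is labelled epididymal although the mice are female, and 7 of 8 epididymis and testis markers were at 0 in every library. Markers of oviduct and uterus set endostatin 4 (407 TPM) and control 3 (709.9 TPM) apart from the other 6 libraries, at 36.6 to 68.3 TPM. The 2 libraries were not alike. Ltf gave 298.3 TPM of the sum in endostatin 4, where Pgr (5.08 TPM) and Msx1 (11.6 TPM) were low. Control 3 had Pgr at 97.2 TPM and Msx1 at 162.4 TPM. Epcam was high in both, at 32.4 TPM in endostatin 4 and 49.6 TPM in control 3. Skeletal muscle markers summed to 43.3 to 106 TPM in the endostatin libraries, against 206 TPM (control 1), 33.1 TPM (control 2), 46.3 TPM (control 3) and 410.6 TPM (control 4). Hepatocyte markers summed to 314.1, 473.5, 21.0 and 916.8 TPM in endostatin 1 to 4, against 128.2, 89.7, 13.3 and 21.2 TPM in control 1 to 4. Endostatin 1, 2 and 4 were above every control library, and the part of this in the levels below was not tested.

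Transcripts of 55 of the 59 genes were counted at least once. By mean TPM over the 8 libraries, 16 genes stood at 10 TPM or more, 38 at 1 TPM or more, 14 at 0.1 to 1 TPM and 7 under 0.1 TPM. Ccl20, Ccl26, Cxcl3 and Cxcr1 had no count in any library. Where a library shows 0 counts, its depth allows as many as 3; that limit is 0.126 to 0.174 CPM (counts relative to the library total) for endostatin libraries and 0.156 to 0.190 CPM for control libraries, and it covers counting error only. Summed over the set, the level was 792.3, 703.9, 1098 and 1439 TPM in endostatin 1 to 4, against 567.4, 847.7, 958.1 and 667.6 TPM in control 1 to 4. The groups overlapped, and endostatin 4 was the highest library.

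Ligands made up most of the RNA, with summed levels of 902.6 ± 318.4 TPM after endostatin and 681.2 ± 166.4 TPM in control tissue (SD, n = 4 each). Ccl6, Cxcl12 and Ccl11 gave 54.7% of the ligand TPM, with Ccl6 alone at 26.9%. These shares count all annotated transcripts of a gene, and 57.0% of the Ccl6 TPM lay in an entry annotated as a retained intron. Receptors summed to 105.6 ± 19.6 TPM after endostatin and 79.0 ± 9.5 TPM in control tissue (SD, n = 4 each). Ackr3 carried 32.6% of receptor TPM, Ccr2 49.6% of CC receptor TPM and Cxcr4 66.4% of CXC receptor TPM. In bulk tissue, fewer cells of a type and less RNA per cell cannot be told apart, and this holds for every level given here.

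**Figure D1:**
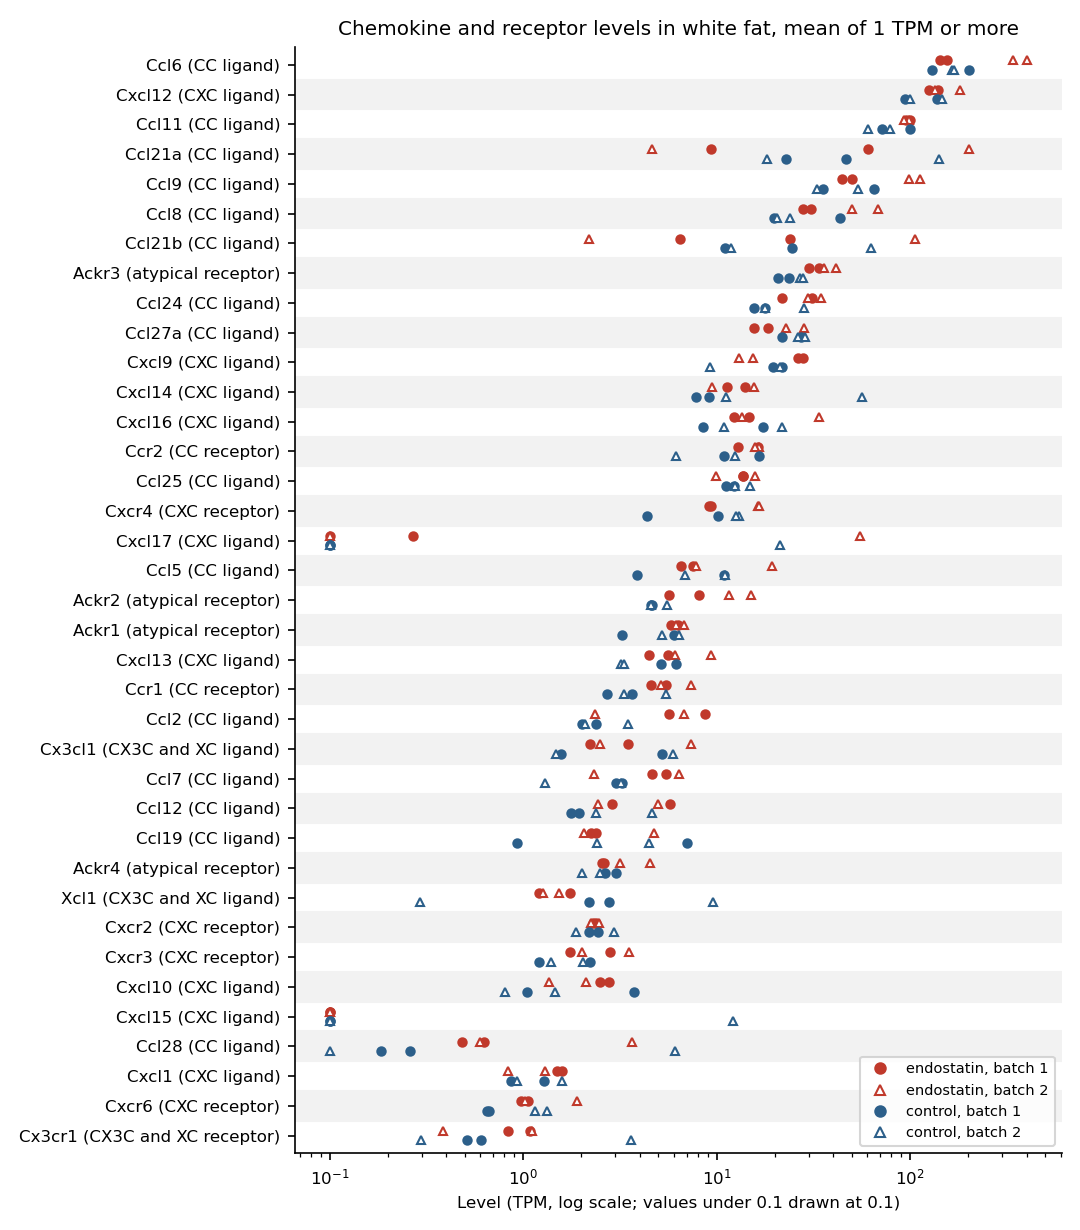
Level of 37 genes with a mean of 1 TPM or more, on a log axis in TPM, with 1 point per library (red, endostatin; blue, control; filled circles, batch 1; open triangles, batch 2; values under 0.1 drawn at 0.1). Ccl6, Cxcl12 and Ccl11 lead, and Ccl21a, Ccl21b, Cxcl17, Cxcl15, Ccl28, Xcl1 and Cx3cr1 differ by over 10 times between their highest and lowest libraries.

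No gene of the set passed the test between the endostatin and control groups. With edgeR's quasi-likelihood test, batch in the model and Benjamini-Hochberg adjustment over 15184 genes, 0 of the 39 genes with enough counts to test were called, against 0% of all genes tested. DESeq2 called 0 of them as well, against 0.0263% of all genes tested. At an unadjusted p under 0.05 there were 3 of 39 (7.69%), against 3.19% of all genes. All 3 were higher after endostatin, against 2.3% of all genes, and 0 were lower, against 0.896%. These 3 were Ackr3, Ccl2 and Ccl24. The log2 fold change (endostatin minus control) was positive for 31 of 39 genes (79.5%), against 46.6% of all genes, and its median was 0.27, against -0.01 over all genes. That median was 0.14 without control 1, 0.17 without control 4, 0.44 without control 2 and 0.06 without both control 1 and control 4, the libraries with the high muscle marker sums. The 95% interval of a gene of the set reached a median of 0.74 to either side, on the log2 scale.

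**Figure D2:**
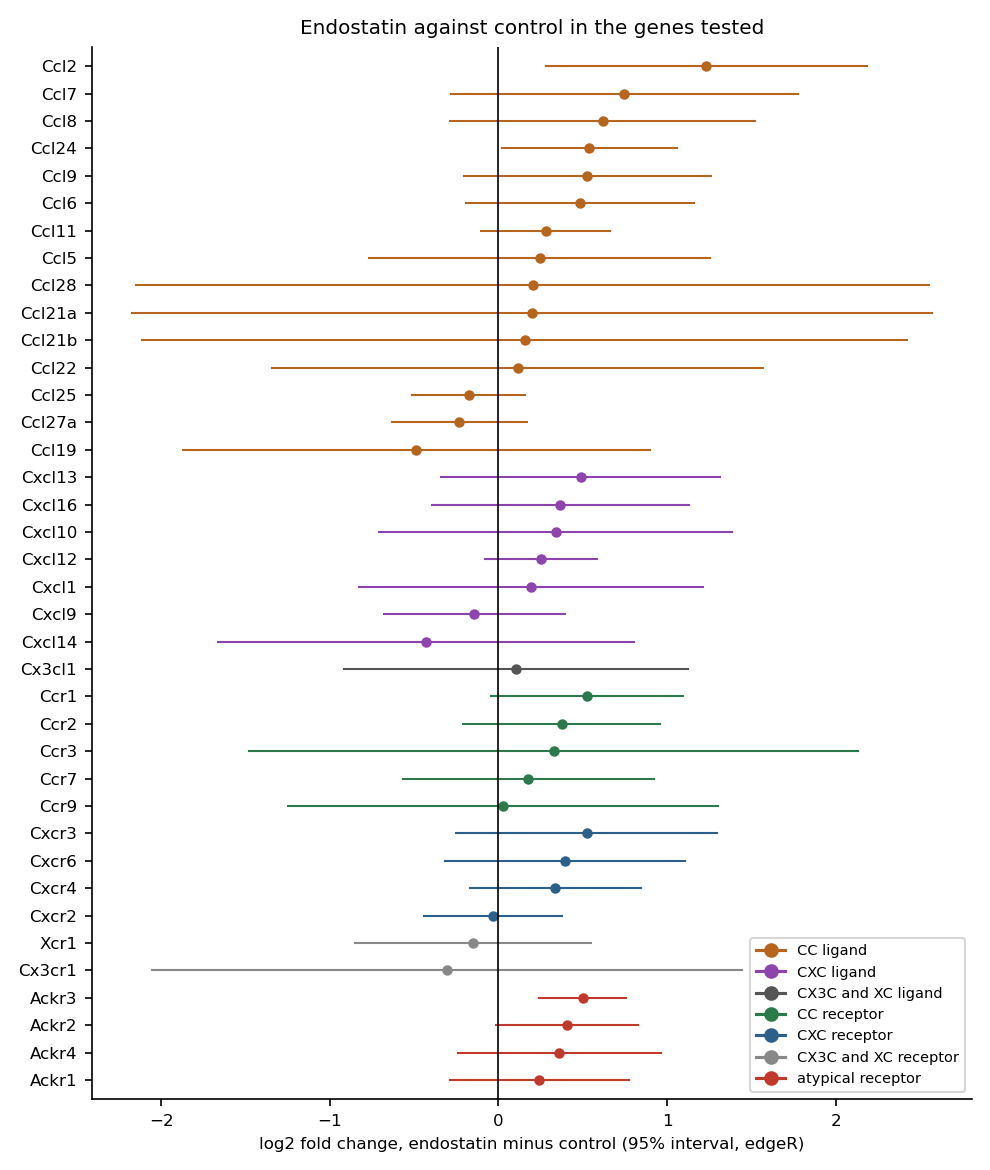
Log2 fold change, endostatin minus control, of 38 of the genes tested, with 95% intervals from edgeR's quasi-likelihood fit, by class. The intervals of Ccl2, Ccl24 and Ackr3 lie above 0, and no gene passed the adjusted threshold.

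Among the atypical receptors, Ackr3 was the most abundant and the one gene of the set whose endostatin and control libraries did not overlap on the CPM scale of the test. It takes up CXCL12 and CXCL11. Ackr3 (ENSMUSG00000044337) stood at 33.9, 30.2, 41.4 and 35.7 TPM in endostatin 1 to 4, against 20.7, 23.6, 27.1 and 27.9 TPM in control 1 to 4. Each endostatin library was above each control library. In TPM, the batch 2 libraries were also above those of batch 1 within each group. This did not hold in CPM, where endostatin 4 (50.1) was below endostatin 1 (50.7), and control 3 (35.4) below control 2 (38.6). The fitted log2 fold change was 0.50 ± 0.11 (SE), with a 95% interval from 0.24 to 0.76. It ranked 10th of 15184 genes by p, and the adjusted p was 1.00 in edgeR's quasi-likelihood test (unadjusted p = 0.00219) and 0.186 in DESeq2. Genes whose endostatin libraries all lay above the control libraries were 1 of 39 (2.56%), against 0.942% of all genes, and 0 of 39 lay wholly below, against 0.698%. Over 15 alternative settings the log2 fold change was 0.40 to 0.55, with an adjusted p of 0.186 to 1.00. The within-batch values were 0.60 in batch 2 and 0.40 in batch 1.

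Ackr2, which degrades inflammatory CC chemokines, stood at 8.12, 5.70, 15.1 and 11.6 TPM in endostatin 1 to 4, against 4.56, 4.62, 4.59 and 5.51 TPM in control 1 to 4. On this scale the groups parted only narrowly, between endostatin 2 and control 4. The share of all genes that part in TPM was not computed. Much of this difference in TPM lay in a short transcript, Ackr2-203, listed at 3.58, 0, 8.33 and 5.23 TPM in endostatin 1 to 4, against 0, 0, 0 and 2.10 TPM in control 1 to 4. The main transcript, Ackr2-202, stood at 4.54, 5.07, 4.00 and 5.26 TPM after endostatin, against 2.97, 3.75, 4.59 and 3.41 TPM in control tissue. The groups overlapped on the main transcript and in the CPM of the whole gene. The log2 fold change from the counts of the whole gene was 0.41 ± 0.18 (edgeR quasi-likelihood unadjusted p = 0.0575, adjusted p = 1.00).

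Ackr1, which binds many CC and CXC chemokines on venules and red cells, averaged 6.26 ± 0.41 TPM after endostatin and 5.22 ± 1.40 TPM in control tissue (SD, n = 4 each). Its log2 fold change was 0.24 ± 0.23, and its annotated exons share 361 of 1405 bases with Cadm3 on the same strand, so its counts are uncertain. Ackr4, which takes up CCL19, CCL21 and CCL25, averaged 3.21 ± 0.91 TPM after endostatin and 2.55 ± 0.42 TPM in control tissue, with a log2 fold change of 0.36 ± 0.26. The log2 fold changes of all 4 atypical receptors were above 0, and their median was 0.38. Their summed level was 50.4, 44.8, 67.2 and 57.2 TPM in endostatin 1 to 4, against 31.2, 37.2, 40.6 and 40.6 TPM in control 1 to 4. These sums did not overlap, and Ackr3 made up 65.1% of them over all libraries. How often sums of other genes part in this way was not computed.

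Cxcl12, the ligand shared by Ackr3 and Cxcr4, was the second gene of the set by TPM summed over its transcripts. It stood at 139, 126, 134 and 182 TPM in endostatin 1 to 4, against 94.4, 138, 146 and 100.2 TPM in control 1 to 4. The groups overlapped, with endostatin 4 highest and control 1 and 4 lowest. The log2 fold change was 0.25 ± 0.14 (95% interval -0.08 to 0.59; edgeR quasi-likelihood unadjusted p = 0.118), with 0.43 in batch 2 and 0.07 in batch 1. It was 0.39 without control 2, 0.16 in the lowest fit that left out 1 library, and 0.13 without control 1 and control 4.

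Cxcl12 is spliced into forms that share their first 89 codons and differ in the end of the protein. The last bases of the 3 coding forms in the annotation are given with the stop codon in capitals. The form with 89 codons, Cxcl12-202, held 58.9% of the gene's TPM, that with 119 codons, Cxcl12-201, held 35.0%, and that with 93 codons, Cxcl12-203, held 2.01%.
Cxcl12-202: gagtacctggagaaagctttaaacaagTAA
Cxcl12-201: agaaaggctgcccagaaaaggaaaaacTAG
Cxcl12-203: aaagctttaaacaagaggctcaagatgTGA

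The 89-codon form stood at 87.2, 60.2, 75.1 and 117.4 TPM in endostatin 1 to 4, against 50.7, 76.6, 100.8 and 56.6 TPM in control 1 to 4. The 119-codon form stood at 40.9, 55.9, 50.2 and 57.0 TPM after endostatin, against 36.3, 53.6, 37.4 and 39.3 TPM in control tissue. Both forms overlapped between the groups. The 93-codon form averaged 3.26 ± 1.49 TPM after endostatin and 2.06 ± 1.23 TPM in control tissue (SD, n = 4 each). Salmon divides reads among forms that share sequence, so the split is an estimate.

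The receptors of Cxcl12 were lower than their ligand in every library. Ackr3 stood at 0.171 to 0.308 times the TPM of Cxcl12, and Cxcr4, the signalling receptor, at 0.0316 to 0.125 times. The log2 ratio of Ackr3 to Cxcl12 was -2.03, -2.06, -1.70 and -2.35 in endostatin 1 to 4, against -2.19, -2.55, -2.43 and -1.84 in control 1 to 4. The means were -2.04 ± 0.27 after endostatin and -2.25 ± 0.31 in control tissue, a difference of 0.22 that is within the SD of either group. Cxcr4 stood at 9.15, 9.37, 16.3 and 16.7 TPM after endostatin, against 10.1, 4.36, 13.0 and 12.5 TPM in control tissue. The batch 2 libraries were above the batch 1 libraries in both groups. Its log2 fold change was 0.34 ± 0.22 for endostatin and 0.65 ± 0.22 for batch 2 over batch 1 (edgeR quasi-likelihood unadjusted p = 0.0183, adjusted p = 0.494). The endostatin value was 0.18 without control 2 and 0.67 without control 1 and control 4.

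**Figure D3:**
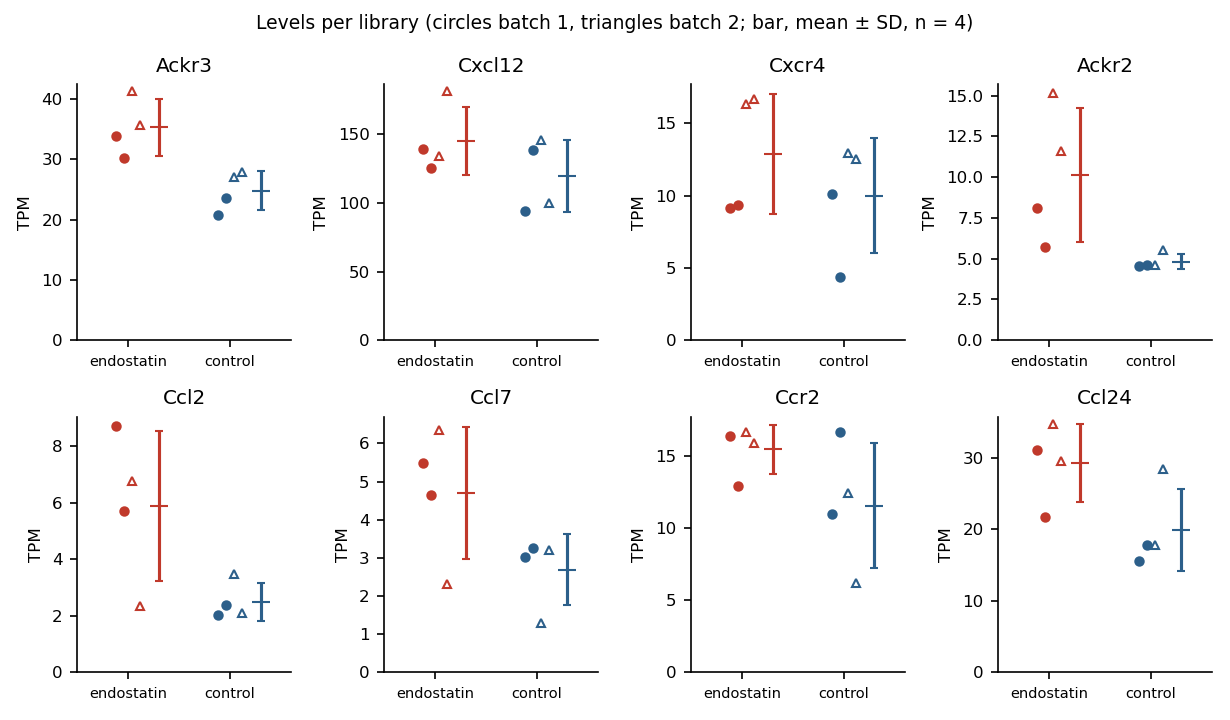
TPM per library for 8 genes, endostatin left of control, with circles for batch 1, triangles for batch 2 and a bar for the mean ± SD (n = 4). Ackr3 separates the groups, Cxcr4 separates the batches, and Ccl2 and Ccl7 are high in 3 of 4 endostatin libraries.

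Among the CC ligands, those of the monocyte receptor Ccr2 were low in level. Ccl2 stood at 8.71, 5.71, 6.79 and 2.35 TPM in endostatin 1 to 4, against 2.02, 2.39, 3.48 and 2.09 TPM in control 1 to 4. Endostatin 1 to 3 were above every control library, and endostatin 4 lay within the control range. Its log2 fold change was 1.23 ± 0.41, with a 95% interval from 0.28 to 2.18 and an adjusted p of 1.00 in edgeR's quasi-likelihood test (unadjusted p = 0.0174). It was 0.78 in batch 2 and 1.68 in batch 1, and 1.03 to 1.66 over the 15 alternatives.

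Ccl7 and Ccl12, further ligands of Ccr2 and neighbours of Ccl2 on chromosome 11, are named after their values were seen. Ccl7 stood at 5.48, 4.66, 6.36 and 2.31 TPM after endostatin, against 3.02, 3.25, 1.29 and 3.20 TPM in control tissue. As for Ccl2, endostatin 1 to 3 were above every control library and endostatin 4 was not. Its log2 fold change was 0.75 ± 0.45. Ccl12 averaged 4.01 ± 1.62 TPM after endostatin and 2.68 ± 1.34 TPM in control tissue (SD, n = 4 each). It had 97 counts over all libraries and did not pass the count filter, which looks at each library and not at the total.

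Ccr2 itself stood at 16.3, 12.9, 16.6 and 15.9 TPM after endostatin, against 10.9, 16.7, 12.4 and 6.16 TPM in control tissue. The groups overlapped, with control 4 lowest. Its log2 fold change was 0.38 ± 0.25, and it was 0.08 without control 1 and control 4. Over the libraries Ccr2 stood at 1.88 to 6.97 times the TPM of Ccl2. The log2 ratio of Ccr2 to Ccl2 was 1.53 ± 0.83 after endostatin and 2.16 ± 0.56 in control tissue (SD, n = 4 each).

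The eotaxins Ccl11 and Ccl24 attract eosinophils through Ccr3. Ccl24 stood at 31.1, 21.8, 34.6 and 29.6 TPM in endostatin 1 to 4, against 15.5, 17.8, 17.9 and 28.4 TPM in control 1 to 4. The groups overlapped only through control 4, which lay above endostatin 2. The fit gave a log2 fold change of 0.54 ± 0.22 (95% interval 0.02 to 1.06), with an adjusted p of 1.00 in edgeR's quasi-likelihood test (unadjusted p = 0.0423). Batch 2 gave 0.60 and batch 1 gave 0.48, and fits without 1 library gave 0.38 to 0.70.

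Ccl11 stood at 95.6, 100.5, 99.3 and 93.1 TPM after endostatin, against 71.7, 99.5, 60.7 and 78.9 TPM in control tissue. The endostatin libraries lay close together, and control 2 lay among them. A log2 fold change of 0.28 ± 0.17 was fitted, and it was 0.12 without control 3. Ccr3 stood at 1.02 ± 0.58 TPM after endostatin and 0.82 ± 0.80 TPM in control tissue (SD, n = 4 each), at most 0.0309 times the TPM of Ccl11.

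The ligand highest in summed TPM, Ccl6, and its chromosomal neighbour Ccl9 are CC chemokines of rodents that act through Ccr1. Of the Ccl6 TPM, 57.0% lay in Ccl6-202, annotated as a retained intron, and 40.6% in the coding form, Ccl6-201. That coding form averaged 86.6 TPM, below the 87.4 TPM of Ccl11, so the rank of Ccl6 holds only for the sum. Of the Ccl9 TPM, 54.3% lay in Ccl9-202, not annotated as coding, and 45.7% in the coding Ccl9-201. Ccl6 stood at 143, 155, 403 and 339 TPM in endostatin 1 to 4, against 129, 202, 166 and 168 TPM in control 1 to 4. Endostatin 3 and 4 were above every other library, and endostatin 1 and 2 lay within the control range. Over both batches the log2 fold change was 0.48 ± 0.29, with 1.16 in batch 2 and -0.20 in batch 1. It was 0.25 without control 3 and 0.74 without control 2.

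Ccl9 stood at 44.4, 49.9, 112 and 98.4 TPM after endostatin, against 35.4, 65.2, 33.1 and 53.6 TPM in control tissue, again with endostatin 3 and 4 highest. Ccl8, which in mouse acts through Ccr8, stood at 30.6, 28.1, 50.0 and 68.6 TPM after endostatin, against 19.8, 43.5, 24.0 and 20.5 TPM in control tissue. For both genes the endostatin libraries of batch 2 were above all others, and Ccr8 had 11 counts over all 8 libraries. The log2 fold change of Ccl9 was 0.53 ± 0.32, and 0.35 without endostatin 3 and 0.22 without control 3. That of Ccl8 was 0.62 ± 0.39, and 0.39 without endostatin 4 or without control 3 and 1.03 without control 2. Macrophage markers summed to 721.5, 737, 1208 and 1302 TPM in endostatin 1 to 4, against 597.9, 872, 653.7 and 670.4 TPM in control 1 to 4, with 8 of 8 markers at 1 TPM or more. Their part in the levels of Ccl6, Ccl9 and Ccl8 was not tested.

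No gene was called for a difference of the endostatin effect between the batches. The test of that difference gave 5 of 39 genes at an unadjusted p under 0.05 (12.8%), against 3.47% of all genes, and 0 after adjustment, against 0% of all genes (lowest adjusted p of the set 0.997, edgeR quasi-likelihood test). The 5 were Ccl6 (unadjusted p = 0.00409), Ccl9 (0.0164), Ccl8 (0.0181), Cxcl13 (0.0187) and Ackr2 (0.0264). All 5 were higher in batch 2, with log2 fold changes of 1.16, 1.19, 1.43, 1.25 and 0.78, against -0.20, -0.15, -0.19, -0.25 and 0.03 in batch 1. The median of the 39 genes was 0.47 in batch 2, against -0.02 over all genes, and 0.07 in batch 1, against 0.00 over all genes. In batch 2, 29 of 39 were positive (74.4%), against 46.8% of all genes, and in batch 1, 24 of 39 (61.5%), against 50.6%. Batch 2 holds both libraries with high oviduct and uterus marker sums, and the part of these in the values was not tested.

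**Figure D4:**
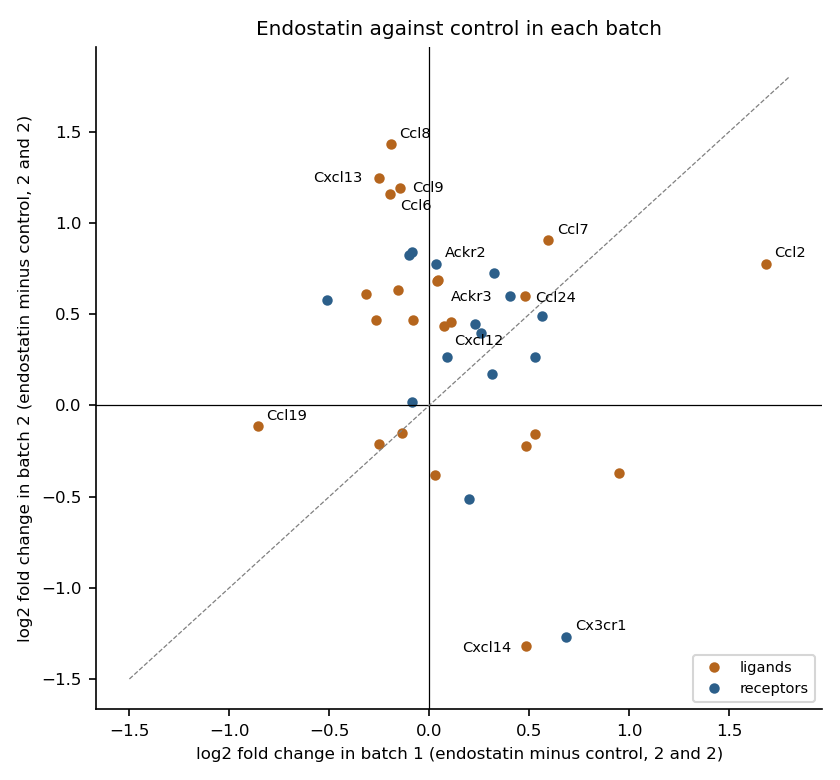
Log2 fold change, endostatin minus control, within batch 1 (horizontal axis) and within batch 2 (vertical axis) for 38 of the genes tested, from 2 libraries per group and batch, with equal values on the dashed line. Ccl6, Ccl9, Ccl8 and Cxcl13 lie at 1.16 to 1.43 in batch 2 and below 0 in batch 1, while Ackr3, Ccl24, Ccl2 and Ccl7 lie above 0 on both axes.

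The sign was shared by the 2 batches for 20 of the 39 genes. The batch comparison itself called 0 genes of the set, against 0.00659% of all genes higher in batch 2 and 0.0329% lower (lowest adjusted p of the set 0.494, edgeR quasi-likelihood test). At an unadjusted p under 0.05 it gave 2 of 39 (5.13%), Cxcr4 and Ccl28, against 9.96% of all genes.

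The remaining receptors of phagocytes and lymphocytes were at lower levels. Ccr1, the receptor of Ccl6 and Ccl9 and outside the naming rule, stood at 5.45, 4.59, 7.36 and 5.14 TPM after endostatin, against 2.72, 3.67, 3.33 and 5.47 TPM in control tissue. The groups overlapped only through control 4, and the log2 fold change was 0.53 ± 0.25 (edgeR quasi-likelihood unadjusted p = 0.0667, adjusted p = 1.00). The sign of the difference in mean TPM and of the fitted log2 fold change differed for Ccl25, Cxcl9, Ccl28 and Ccl22. Ccl5, a ligand of activated T and NK cells, averaged 10.3 ± 6.0 TPM after endostatin and 8.17 ± 3.45 TPM in control tissue (SD, n = 4 each), with a log2 fold change of 0.24 ± 0.44 that turned to -0.15 without control 1 and control 4.

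Among receptors with class partners in the set, 6 of 6 CC receptors tested had positive log2 fold changes (median 0.30), as had 3 of 4 CXC receptors (median 0.37). Both receptors of the CX3C and XC classes were negative, Cx3cr1 at -0.31 ± 0.76 and Xcr1 at -0.15 ± 0.30. The 16 receptors tested had a median of 0.33 and the 23 ligands one of 0.24, with 13 and 18 positive.

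The interferon-inducible ligands Cxcl9 and Cxcl10 share the receptor Cxcr3 of activated T cells. Cxcl9 stood at 28.1, 26.2, 13.0 and 15.4 TPM in endostatin 1 to 4, against 19.7, 21.7, 9.21 and 21.3 TPM in control 1 to 4, with a log2 fold change of -0.14 ± 0.23. In this sum over transcripts, endostatin 1 and 2 were highest and control 3 lowest. An entry annotated as a retained intron held 28.2% of the gene's TPM, and 15.4 TPM in endostatin 1. The coding form, Cxcl9-201, stood at 12.7, 17.3, 13.0 and 10.4 TPM after endostatin, against 15.5, 16.5, 9.21 and 16.4 TPM in control tissue. Cxcl10 averaged 2.19 ± 0.61 TPM after endostatin and 1.77 ± 1.35 TPM in control tissue (log2 fold change 0.34 ± 0.45), and Cxcr3 averaged 2.52 ± 0.80 TPM after endostatin and 1.72 ± 0.49 TPM in control tissue (0.52 ± 0.33; SD, n = 4 each). The exons of Cxcl10 overlap those of Art3 on the opposite strand, and none of the sources used here gives the strand setting of the counting.

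Cxcl16, a membrane-bound ligand of Cxcr6, stood at 14.6, 12.3, 13.5 and 33.7 TPM after endostatin, against 8.49, 17.3, 21.8 and 10.9 TPM in control tissue. Endostatin 4 was highest, and the groups overlapped, with a log2 fold change of 0.37 ± 0.33. That value was 0.022 without endostatin 4, 0.17 without control 4 and 0.64 without control 2. Its exons overlap Zmynd15 on the opposite strand. Cxcr6, a receptor of T and NK cells, averaged 1.24 ± 0.45 TPM after endostatin and 0.951 ± 0.343 TPM in control tissue (SD, n = 4 each), with a log2 fold change of 0.39 ± 0.31. T and NK cell markers summed to 14.9 to 30.4 TPM after endostatin and 12.6 to 25.6 TPM in control tissue.

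Cxcl1, a neutrophil attractant, averaged 1.30 ± 0.34 TPM after endostatin and 1.16 ± 0.33 TPM in control tissue (log2 fold change 0.19 ± 0.44). Without 1 library that log2 fold change was 0.0017 (control 1) to 0.56 (control 4). Its receptor Cxcr2 averaged 2.34 ± 0.09 TPM after endostatin and 2.36 ± 0.45 TPM in control tissue, with a log2 fold change of -0.03 ± 0.18 and a 95% interval from -0.44 to 0.37. Cxcl2 and Cxcl5, further ligands of Cxcr2, had 8 counts and 1 count over all 8 libraries.

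Ccl27a, Ccl25, Ccl19 and Cxcl14 had the smallest p among genes with negative log2 fold changes, and none passed the test. Ccl27a encodes a ligand of Ccr10 known from skin. Summed over its transcripts, it stood at 15.6, 18.3, 22.8 and 28.2 TPM after endostatin, against 27.5, 21.7, 28.6 and 26.3 TPM in control tissue. Endostatin 1 and 2 were the lowest libraries, and the log2 fold change was -0.23 ± 0.17 (edgeR quasi-likelihood unadjusted p = 0.219, adjusted p = 1.00), with -0.21 in batch 2 and -0.25 in batch 1. The coding form highest in mean TPM held 22.2% of the gene's TPM. Entries annotated as retained introns held 19.4%, 15.8%, 10.8% and smaller shares. The entry with 10.8% was at 0 in every endostatin library, against 6.77, 6.13, 5.19 and 2.24 TPM in control 1 to 4. Its part in the log2 fold change was not tested. Salmon divides reads among entries that share sequence, so the level of this entry is an estimate. The share of all transcripts that part in this way was not computed. Ccl25, a ligand known from thymus and small intestine, averaged 13.3 ± 2.5 TPM after endostatin and 12.7 ± 1.5 TPM in control tissue (log2 fold change -0.18 ± 0.15), and its receptor Ccr9 stood at 0.201 ± 0.096 TPM after endostatin and 0.169 ± 0.089 TPM in control tissue (SD, n = 4 each). Of the Ccl25 TPM, 31.0% and 23.0% lay in entries annotated as retained introns.

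Among the homeostatic ligands of lymphoid tissue, Ccl21a and Ccl21b varied between libraries far more than between groups. They encode ligands of Ccr7 made by lymphatic endothelium and lymph node stroma, and are near-identical genes whose split is uncertain. Their summed level was 84.4, 15.8, 6.81 and 306.3 TPM in endostatin 1 to 4, against 33.8, 71.0, 203.8 and 30.1 TPM in control 1 to 4. Endostatin 4 and control 3 were highest and endostatin 3 lowest. Of 5 lymphatic endothelium markers, Prox1, Flt4 and Reln were likewise highest in endostatin 4 (2.33, 11.7 and 7.91 TPM) and control 3 (2.74, 13.0 and 6.68 TPM), and Prox1 was at 0 in endostatin 3. Lyve1 and Pdpn, at higher levels, were highest in endostatin 3 (83.1 and 35.9 TPM), and the sum of the list was 78.2 to 124.5 TPM after endostatin and 70.1 to 105.7 TPM in control tissue. The part of these cells in the Ccl21 levels was not tested. A list of 4 lymph node stroma and follicle markers summed to 0.151 to 0.728 TPM after endostatin and 0 to 0.808 TPM in control tissue, with 1 of 4 at 0 in every library. The log2 fold change of Ccl21a was 0.20 ± 1.03, with -1.23 to 0.76 when 1 library was left out.

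Ccl19, the second ligand of Ccr7, stood at 2.23, 2.38, 2.07 and 4.75 TPM after endostatin, against 0.927, 7.07, 2.41 and 4.49 TPM in control tissue, with a log2 fold change of -0.49 ± 0.60. Of the Ccl19 TPM, 72.0% lay in Ccl19-202, not annotated as coding. Ccr7 averaged 0.737 ± 0.172 TPM after endostatin and 0.637 ± 0.157 TPM in control tissue (SD, n = 4 each). Cxcl13, the B cell attractant, averaged 6.39 ± 2.09 TPM after endostatin and 4.46 ± 1.44 TPM in control tissue. Its receptor Cxcr5 had 48 counts over all libraries and did not pass the count filter.

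A group of genes was high in the libraries with high oviduct and uterus marker sums, endostatin 4 and control 3. Cxcl17, a mucosal chemokine, stood at 55.2 TPM in endostatin 4 and 21.3 TPM in control 3, and at 0 to 0.269 TPM in the other 6. Cxcl15, known from airway epithelium of mice, was counted in control 3 alone, at 12.2 TPM. Both are outside the naming rule and are named after their values were seen. Ccl28, a ligand of mucosal epithelia, stood at 0.629, 0.481, 0.596 and 3.65 TPM after endostatin, against 0.259, 0.185, 6.12 and 0.0996 TPM in control tissue. Whether cells of the genital tract gave these levels was not tested.

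Cxcl14, expressed by many epithelia, stood at 13.9, 11.4, 15.5 and 9.44 TPM in endostatin 1 to 4, against 7.79, 9.19, 56.1 and 11.1 TPM in control 1 to 4. Endostatin 4 was the lowest endostatin library for this gene. Its log2 fold change was -0.43 ± 0.53, and 0.30 without control 3. Xcl1, a ligand of lymphocytes, stood at 1.21, 1.75, 1.53 and 1.27 TPM after endostatin, against 2.76, 2.20, 9.59 and 0.294 TPM in control tissue, and was below the count filter. Xcr1, its receptor on cross-presenting dendritic cells, averaged 0.667 ± 0.212 TPM after endostatin and 0.712 ± 0.151 TPM in control tissue (SD, n = 4 each).

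Cx3cl1, a membrane-tethered ligand, stood at 2.21, 3.47, 2.50 and 7.36 TPM after endostatin, against 1.56, 5.23, 5.96 and 1.47 TPM in control tissue. The groups overlapped, and the log2 fold change was 0.10 ± 0.44. Its receptor Cx3cr1 stood at 1.09, 0.838, 0.387 and 1.10 TPM after endostatin, against 0.515, 0.606, 3.60 and 0.297 TPM in control tissue, with control 3 highest. Without control 3 the log2 fold change of Cx3cr1 was 0.86, against -0.31 with it.

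**Figure D5:**
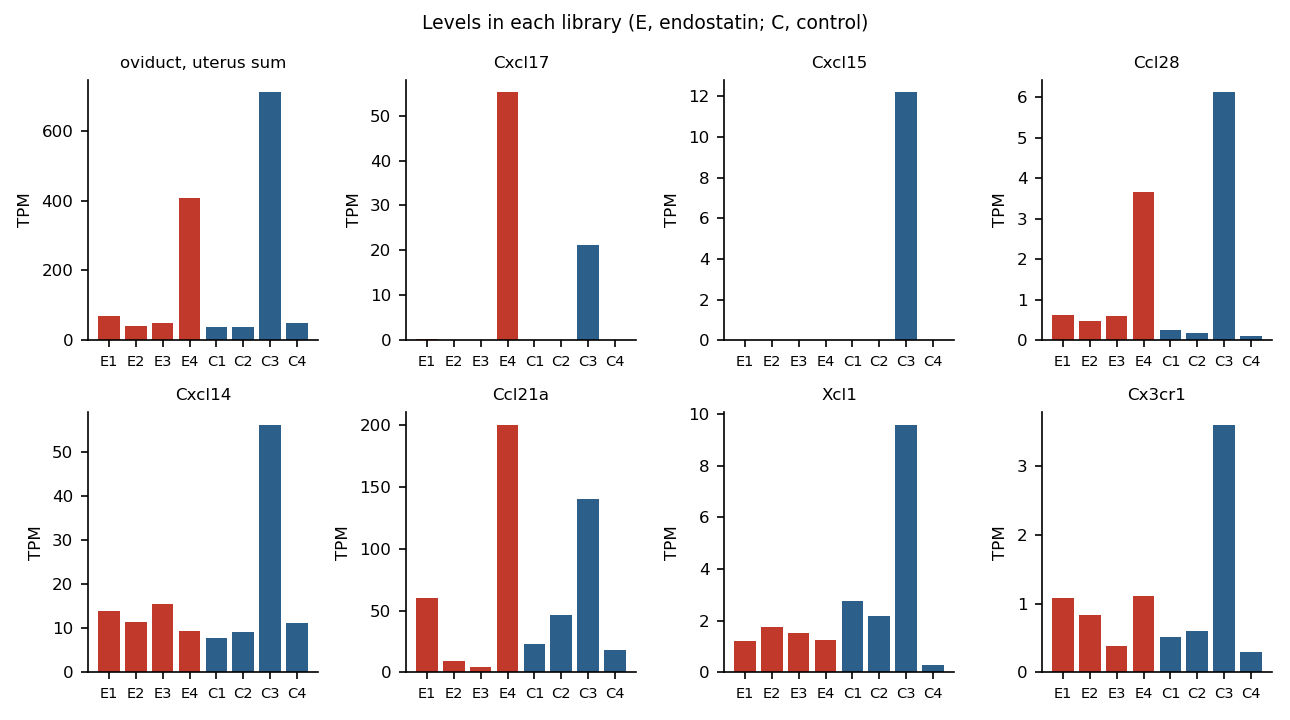
TPM per library (E, endostatin; C, control; bars start at 0) of the summed oviduct and uterus markers and of 7 genes of the set. Cxcl17, Ccl28 and Ccl21a are high in endostatin 4 and control 3, and Cxcl15, Cxcl14, Xcl1 and Cx3cr1 in control 3.

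Genes of the set lie in runs of neighbours, with 14 on chromosome 11, 13 on chromosome 9 and 10 on chromosome 5. In the run Ccl2, Ccl7, Ccl11, Ccl12, Ccl8 and Ccl1 of chromosome 11, the 4 tested genes had log2 fold changes of 1.23, 0.75, 0.28 and 0.62. The run Ccl5, Ccl9 and Ccl6 on that chromosome had 0.24, 0.53 and 0.48. All 7 were positive, as were 79.5% of the genes of the set tested, and Ccl5 turned negative without endostatin 3 (-0.16). Signs were mixed in the run Cxcr6, Xcr1 and Ccr1 of chromosome 9 (0.39, -0.15 and 0.53) and for Ccl19 and Ccl21a, neighbours on chromosome 4 (-0.49 and 0.20).

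Of 37 genes that act around the receptors (G proteins, kinases, arrestins, regulators of migration and related ligands), 37 were tested and 0 passed. At an unadjusted p under 0.05 there were 3 higher (8.11%), against 2.3% of all genes, and 0 lower, against 0.896%. Values above 0 were found for 26 (70.3%), against 46.6% of all genes, and the median log2 fold change was 0.07, against -0.01 over all genes. The list was chosen with earlier results of these data known, so these shares describe it and are no independent result. Pik3r5, a regulatory subunit of the phosphoinositide kinase activated by G proteins, averaged 8.87 ± 2.26 TPM after endostatin and 5.17 ± 1.00 TPM in control tissue (log2 fold change 0.58 ± 0.20; edgeR quasi-likelihood unadjusted p = 0.0215, adjusted p = 1.00). Rarres2, which encodes the adipose-derived attractant chemerin, averaged 573.4 ± 137.2 TPM after endostatin and 429.5 ± 48.3 TPM in control tissue (0.34 ± 0.12; unadjusted p = 0.0224). Among negative values, Elmo1, a partner of Dock2 in migrating cells, had -0.13 ± 0.11. Dock2 itself, the remaining gene of the 3 at an unadjusted p under 0.05, was higher after endostatin (0.52 ± 0.20). Jak2, a cytokine receptor kinase, had -0.25 ± 0.30, with 19.3 to 24.2 TPM after endostatin, against 54.1 TPM in control 3 and at most 18.3 TPM in the other control libraries.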

How the data were processed

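Ribosomal RNA was removed from total RNA of white adipose tissue and the libraries keep the strand, per the labels' protocols. Per the submitters' processing notes the authors used Salmon and GRCm39, and their deposited files hold estimated counts and TPM per transcript; no version, index or strand setting is given in the sources used here. Identifiers were matched without version to GENCODE M21 for names and types: 113710 of 115620 (98.35%) matched, and each of the 1910 others stayed a feature. Because M21 is of another build, no coordinates are printed. Of 66 protein-coding entries that match the rule, 59 were in the files and the others were not analysed here.

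Counts were summed per gene and rounded, TPM was summed per gene. Genes were filtered with filterByExpr, scaled by TMM and tested with edgeR 4.0.16 (R 4.3.3), two-sided, with batch and treatment as terms, Benjamini-Hochberg adjustment over 15184 genes and a threshold of 0.05. An interaction model gave the within-batch values. The 15 alternatives include DESeq2 1.42.0. The code was tested on simulated data. Levels are TPM, fold changes come from counts, and Salmon's split of shared reads makes values of near-identical or overlapping genes uncertain. The set of genes, the lists and the tests were chosen with earlier results of these data known. Genes named are the 16 highest in mean TPM, both partners of 16 pairs, the atypical receptors, and the smallest p values (4 per direction for endostatin, 3 for batch, 2 for the interaction). Of the genes named by this rule, 1 is not reported here. For the pairs, Ccl20 had no count and Ccr6 had 5 over all libraries.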

Additional observations from a re-analysis of the deposited data

Results flagged for a closer look

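Levels of named or abundant genes and of the marker sums were examined in each group of 4 libraries. The search was for 1 library far from the other 3, in 122 groups, and 19 were found. A rate of about 1 in 20 by chance holds for normal values in independent groups. These groups share the same libraries and some levels are 0, so the 19 cannot be set against that rate. In control 3, Cxcl14 stood at 56.1 TPM (others 7.79 to 11.1), Cxcl17 at 21.3 (others 0), Cxcl15 at 12.2 (others 0), Ccl28 at 6.12 (0.0996 to 0.259) and Cx3cr1 at 3.60 (0.297 to 0.606). Low there were Cxcl9 at 9.21 TPM (others 19.7 to 21.7) and Ccl7 at 1.29 (3.02 to 3.25). The same library had sums of 709.9 TPM for oviduct and uterus markers (others 36.6 to 49.5), 142.6 for venule markers (74.0 to 85.0) and 33.8 for neutrophil markers (6.94 to 11.1). Single genes carried the last 2 sums: Nr2f2 gave 95.5 TPM and Retnlg 28.0 TPM, while Selp (3.31 TPM), S100a8 (1.61 TPM) and S100a9 (3.32 TPM) were not the highest of the control libraries.

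In endostatin 4, Cxcl17 stood at 55.2 TPM (others 0 to 0.269), Cxcl16 at 33.7 (12.3 to 14.6), Ccl19 at 4.75 (2.07 to 2.38) and Ccl28 at 3.65 (0.481 to 0.629). Its sums were 407 TPM for oviduct and uterus markers (40.7 to 68.3) and 276.9 for monocyte markers (27.5 to 47.8), of which Plac8 gave 264.2 TPM. Ltf gave 298.3 TPM of its oviduct and uterus sum, and Ovgp1 (0.719 TPM) and Pgr (5.08 TPM) were within the range of the other endostatin libraries or below it. In endostatin 3, Ccl5 stood at 19.3 TPM (6.56 to 7.83) and Cxcr6 at 1.91 (0.974 to 1.06). In control 4, Ackr2 stood at 5.51 TPM (4.56 to 4.62).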

How the results depend on the processing

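Of 36 named genes tested, 23 kept the sign of their log2 fold change in all 15 alternatives and 0 were called in any (lowest adjusted p 0.186, Ackr3 in DESeq2). The call count of the set was 0 in each alternative, and DESeq2 called 4 genes outside it where edgeR called 0. The median of the set was 0.14 to 0.44 with 1 library left out (0.44 without control 2) and 0.061 without control 1 and control 4. The labels state no pairing of the libraries by replicate number. As deviations from group means, same-numbered libraries had correlations of 0.211, 0.144, -0.0732 and -0.295. Batch also enters these correlations, so they cannot settle whether libraries are paired. With a replicate block the set had 0 calls and a median of 0.30. Signs turned under the block for Ccl21a (-0.51), Ccl21b (-0.50) and Cx3cr1 (0.14), and without a batch term for Ccl28 (-0.21). Without control 3 and endostatin 4 they turned for Ccl21a (-0.61), Ccl21b (-0.91), Cx3cr1 (0.57), Ccr9 (-0.22) and Cxcl14 (0.45). Without control 1 and control 4 they turned for Ccl28 (-0.38), Ccl21a (-0.40), Ccl21b (-0.44), Ccr9 (-0.13), Ccl5 (-0.15), Cx3cl1 (-0.40), Ccr3 (-0.47), Cxcl9 (0.17) and Cxcl10 (-0.15). With 1 library left out the ranges were -0.33 to 2.03 (Ccl28), -1.23 to 0.76 (Ccl21a), -1.42 to 0.51 (Ccl21b), -0.59 to 0.86 (Cx3cr1), -0.25 to 0.53 (Ccr9), -0.16 to 0.67 (Ccl5), -0.28 to 0.42 (Cx3cl1), -0.045 to 1.24 (Ccr3), -0.84 to 0.27 (Ccl19), -0.69 to 0.30 (Cxcl14), -0.12 to 0.022 (Cxcr2) and -0.34 to 0.11 (Cxcl9). Without 1 library the log2 fold change moved by over 1.5 times for 31 of the 36; the 5 others were Ackr2, Ackr3, Ccl2, Ccl24 and Ccl27a. The cause was not tested. The 16 genes that had counts but did not pass the count filter limit the account of low ligands and receptors.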
